A study of Homo sapiens with 2 samples.

Results

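The cytosolic ribosomal protein genes were examined in tumour cells exposed to cytokines. Members were chosen by symbol alone: every gene whose symbol starts with RPL or RPS followed by a number and, at most, a copy letter and digit, together with RPLP0, RPLP1, RPLP2 and RPSA. This gave 86 of the 36601 genes in the table, 34 of the small and 52 of the large subunit, and no expression value entered the choice.

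The cells were OVCAR5, a human ovarian carcinoma line, with a built-in sensor of IFN-gamma (interferon gamma) and sorted for its cyan fluorescent protein, which the labels describe as bystander cells. The cells had grown as tumours in NSG-b2m-/- mice, were digested to single cells, and were then kept in culture for 6 h without cytokine, with 10 ng/ml TNF, or with 10 ng/ml TNF and 100 ng/ml IFN-gamma. Cells of 5 tumours were tagged with hashtag antibodies, pooled and run as 1 droplet library with a 3′ gene expression and a hashtag readout. Each cell carried a pair of hashtags, and the 15 pairs are called hashed samples. No label says which hashtag went with which treatment or tumour. The 3 groups used here are lists of hashtag numbers that were inferred earlier from interferon and NF-kB response genes, with 5 hashed samples each, and they are named by likeness: unstimulated-like, TNF-like and both-like. They are sets of hashed samples and not known treatments, and since nothing says the hashed samples are independent tumours, p-values below measure only the spread between hashed samples. The labels list no condition with IFN-gamma alone. All cells had the reporter, the mouse host and the digestion in common.

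The ribosome consists of a small subunit that reads the mRNA and a large subunit that forms peptide bonds, each built from ribosomal RNA and single copies of most ribosomal proteins. Their mRNAs are among the most abundant in growing cells, and most start with a C followed by a run of C and T, the 5′ terminal oligopyrimidine (TOP) tract. Through the TOP tract the kinase mTOR and the RNA-binding protein LARP1 control how strongly these mRNAs are translated, so protein output can change without a change in mRNA. Several members also have roles outside the ribosome: RPL5 and RPL11 bind MDM2, the ubiquitin ligase of p53, and RPL13A is released from the ribosome in IFN-gamma-treated myeloid cells and joins a complex that silences translation of inflammatory mRNAs.

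Start sequences show the feature that most members shared and that the choice by symbol did not use. A C at the annotated start followed by at least 4 bases that are each C or T, read on the gene's own strand, was found in 48 of the 69 members with an entry in the RefSeq start table (GRCh38.p14), or 69.6%. The same run was found in 5.14% of the 27305 genes in that table. Among the 7606 other genes with an entry that passed the filter on low counts used below, it was found in 7.4%. Below are windows of 15 bases on each side of the annotated start, 5′ to 3′ on the strand of the gene, with the run in capitals and the remaining bases in lower case. They were picked after the values were seen, to show members that the results below turn on and the paralog pairs.
RPS16 (chr19:39435935-39435964, minus strand): gtggcccctagctttCCTTTTCCggttgcg
RPS27A (chr2:55232673-55232702, plus strand): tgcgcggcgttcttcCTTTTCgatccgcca
RPS19 (chr19:41860240-41860269, plus strand): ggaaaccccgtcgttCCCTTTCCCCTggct
RPL27 (chr17:42998404-42998433, plus strand): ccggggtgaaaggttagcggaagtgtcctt
RPS27 (chr1:153990747-153990776, plus strand): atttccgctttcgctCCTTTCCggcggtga
RPS27L (chr15:63157463-63157492, minus strand): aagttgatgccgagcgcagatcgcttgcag
RPL22 (chr1:6199581-6199610, minus strand): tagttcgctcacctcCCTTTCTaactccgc
RPL22L1 (chr3:170870181-170870210, minus strand): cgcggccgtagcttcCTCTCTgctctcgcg
RPL26 (chr17:8383179-8383208, minus strand): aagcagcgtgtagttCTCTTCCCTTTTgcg
RPL26L1 (chr5:172958714-172958743, plus strand): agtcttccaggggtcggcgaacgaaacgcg
RPL7L1 (chr6:42879601-42879630, plus strand): cggaagtgcggcgccgtagctaggagcgga

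The run began at the annotated base in RPS16, RPS27A, RPS19, RPS27, RPL22, RPL22L1 and RPL26. In RPL27, RPS27L, RPL26L1 and RPL7L1 these letters were not in that place. RPS27 and RPL26 thus had the run where their paralogs RPS27L and RPL26L1 did not, whereas RPL22 and RPL22L1 both had it. A gene was counted as having the run where any of its listed starts had it. The table lists 3 starts for RPS27A and 2 each for RPS19 and RPL26L1, of which 1 is shown, and the starts used by these cells were not measured.

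Of 5269 barcodes, 3538 passed the limits of 1000 or more genes and no more than 20% mitochondrial counts, and 3144 of these carried a clear pair of hashtags. Hashed samples held 49 to 630 cells and 582102 to 7324691 unique molecular identifiers (UMIs, counts of single captured RNA molecules), and the median UMI count per cell was 10942 to 12405. The interferon list, which helped define the groups, took 4.24% to 6.18% of UMIs in both-like samples, 0.953% to 1.92% in TNF-like and 0.908% to 1.56% in unstimulated-like samples. The NF-kB list took 1.38% to 1.69%, 0.963% to 1.37% and 0.24% to 0.36%. The mitochondrial share was 12% to 14.2% over the 15 samples. All 9 epithelial markers were detected, at a summed 40.2 to 88 UMIs per 10000. T and NK cell markers summed to at most 0.011, with CD2, CD3D, CD3E, CD8B, GNLY and NKG7 at 0, and the 4 erythroid markers were at 0. B cell, fibroblast and endothelial markers summed to at most 0.0107, 0.0519 and 0.0501, and myeloid markers to 0.292 to 0.605.

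Ribosomal protein mRNA was a steady part of the transcriptome in the 15 hashed samples. The 86 members gave 14.2% of all UMIs in HTO2+HTO5, 13.8% in HTO2+HTO8, 14.1% in HTO3+HTO7, 13.1% in HTO4+HTO7 and 13.7% in HTO4+HTO10, the unstimulated-like samples. In the TNF-like samples the share was 13.9% in HTO2+HTO6, 13.8% in HTO2+HTO10, 15% in HTO3+HTO5, 13.6% in HTO3+HTO8 and 12.9% in HTO4+HTO8. In the both-like samples it was 13.5% in HTO2+HTO7, 12.9% in HTO3+HTO6, 13.5% in HTO3+HTO9, 13.1% in HTO4+HTO6 and 11.7% in HTO4+HTO9. The groups overlapped, with means of 13.8% ± 0.424 (SD, n = 5), 13.8% ± 0.752 (SD, n = 5) and 12.9% ± 0.761 (SD, n = 5) in the same order. The highest and the lowest share came from 2 of the smallest samples, HTO3+HTO5 with 49 cells and HTO4+HTO9 with 64 cells. Exact 95% Clopper-Pearson intervals, which cover counting error only, ran from 14.9% to 15.1% in HTO3+HTO5 and from 11.6% to 11.7% in HTO4+HTO9. In a share, less mRNA of the members per cell and more of all other RNA per cell cannot be told apart.

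**Figure D1:**
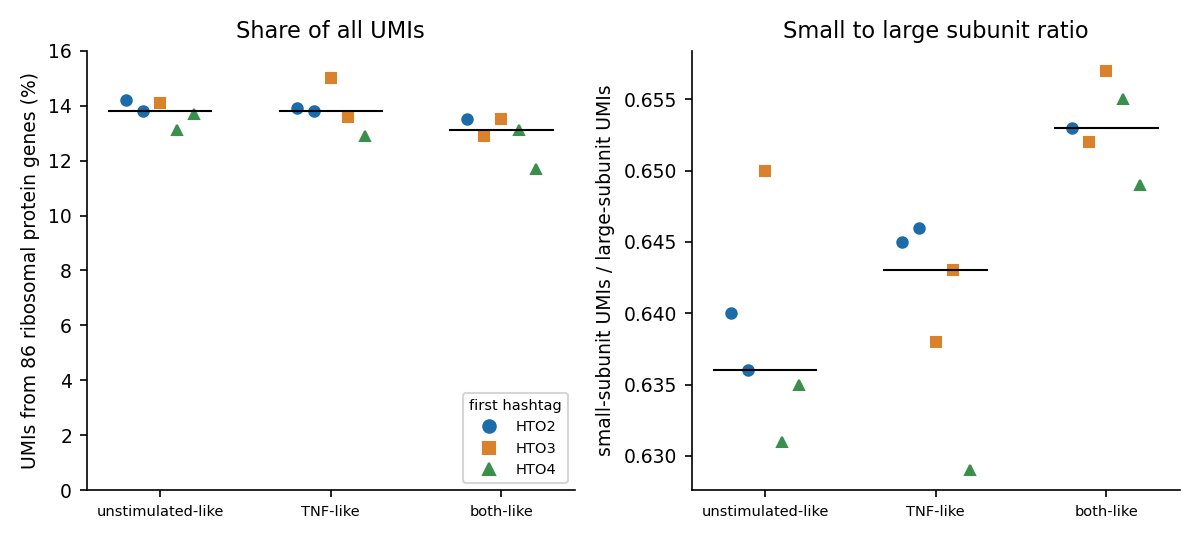
Left, the percentage of all UMIs that came from the 86 ribosomal protein genes in each hashed sample (points, shaped and coloured by the first hashtag of the pair) with the median of each group (line). Right, the ratio of small-subunit to large-subunit UMIs on an axis that does not start at 0. The shares overlap between the groups, while the 5 both-like ratios lie at 0.649 to 0.657, all above the TNF-like ones.

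The lower both-like share depended on the denominator. With mitochondrial genes and the interferon and NF-kB lists taken out of the total, the mean share was 16.2% ± 0.487 (SD, n = 5) in unstimulated-like, 16.4% ± 0.809 (SD, n = 5) in TNF-like and 16.2% ± 0.844 (SD, n = 5) in both-like samples, and the medians were 16.1%, 16.3% and 16.5%. The groups were inferred from interferon and NF-kB response genes, and both lists took a larger share of UMIs in both-like samples than elsewhere. Taking them out therefore raises the both-like share most by construction. The first hashtag also moved with the share: in each group the lowest value came from a sample with HTO4. The labels do not say what the first hashtag stands for, and its part in the shares was not tested. With the first hashtag as a term in the fit, 17 members were called higher between both-like and unstimulated-like samples, against 16 without it.

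The subunits kept nearly constant proportions. The ratio of small-subunit to large-subunit UMIs was 0.631 to 0.65 in unstimulated-like, 0.629 to 0.646 in TNF-like and 0.649 to 0.657 in both-like samples. All both-like samples lay above all TNF-like samples, and they overlapped with the unstimulated-like samples through HTO3+HTO7 at 0.65. No test was made of this ratio, which is a score over the members.

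Within hashed samples, single cells differed more than the samples did, as medians and totals over many cells vary less by construction. The median cell had a share of 11.1% to 14.9%, and within HTO2+HTO7 the middle 50% of cells ran from 10.7% to 15.7%. Over the cells of a hashed sample, 49 to 630 in number, Spearman's rho between the members' share and the share of the nuclear RNAs MALAT1 and NEAT1 was -0.496 to -0.228. The rho with the mitochondrial share was -0.395 to 0.0497, and with the total UMI count -0.308 to 0.205. These are descriptions of cells that share a library, and shares of 1 total are tied to each other by construction.

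The members spanned a wide range of levels. The 82 members that passed the filter on low counts had 0.201 (RPL39L) to 56.3 (RPLP1) UMIs per 10000, with a median of 13.7. These are 3′ UMI counts, which do not grow with transcript length. The 4 others had too few counts for a test: RPL10L, a copy known from testis, had 5 UMIs, RPL3L, a copy known from heart and skeletal muscle, had 3 UMIs, and the Y-linked copies RPS4Y1 and RPS4Y2 are not described. The most abundant were RPLP1 at 56.3, an acidic protein of the stalk that recruits translation factors, RPL13 at 51.9, RPL8 at 46.1, RPS18 at 43.7 and RPS12 at 37.2. The other stalk genes RPLP0 and RPLP2 stood at 17.5 and 15.6, although the stalk holds RPLP1 and RPLP2 in equal number. The 10 highest members held 29.6% of all member UMIs. Reads of 77 members could also match 1145 annotated pseudogenes (GENCODE 29) named after them, so levels of single members are uncertain where the counting split reads or dropped them.

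Relative to the total of the members, single members varied little. The SD over the 15 samples of the log2 share of member UMIs had a median of 0.05, and it was 0.02 to 0.14 in the 76 members with at least 10000 UMIs. Wider spreads came from low paralogs: 0.40 in RPL39L, 0.25 in RPL7L1 and 0.21 in RPS27L, where counting alone gives 0.28, 0.12 and 0.09. Among abundant members, RPS16 reached 0.14, where counting gives 0.04, and RPS20 had 0.12, where counting gives 0.03. RPS20 was not the next widest: the RPS26 share of member UMIs also varied, from 0.181% in HTO3+HTO9 to 0.242% in HTO4+HTO9.

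TNF-like and unstimulated-like samples did not differ in any member past the threshold. With edgeR's quasi-likelihood test, TMM scaling and Benjamini-Hochberg adjustment over 9636 genes, 0 of the 82 tested members had an adjusted p under 0.05, whereas 11.2% of all genes tested did. At an unadjusted p under 0.05 there was 1 member, RPS20, with a log2 fold change of 0.15 ± 0.07 (SE) and an adjusted p of 0.205. DESeq2 also called 0 members, with 2 at an unadjusted p under 0.05, and called 9.22% of all genes. The median log2 fold change of the members was 0.08, beside 0.00 over all genes, and 80 of 82 lay above 0. Without the 4 hashed samples of fewest cells the median was 0.07 and 79 of 82 lay above 0. Without HTO3+HTO5 and HTO4+HTO9, a set chosen after seeing the data, the median was 0.02 and 63 of 82 lay above 0. With library totals in place of TMM the median was 0.01 and 52 of 82 lay above 0. The median bounds of the members' 95% intervals were -0.06 and 0.22, so changes within those bounds were not excluded.

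Both-like samples, compared with TNF-like samples, had 2 members higher and 0 lower in edgeR's quasi-likelihood test, with 18.6% of all genes called and 11.1% called higher. At an unadjusted p under 0.05 there were 4 higher and 1 lower. The members were RPS16 and RPS20, proteins of the small-subunit head. RPS16 had a log2 fold change of 0.25 ± 0.08 (SE; edgeR's quasi-likelihood test, adjusted p = 0.0268) and RPS20 one of 0.20 ± 0.07 (SE; adjusted p = 0.0426). RPS16 was called in 22 of 28 fits of this comparison and RPS20 in 15 of 28. Of the 15 fits that left out a hashed sample, RPS16 was called in 13 and RPS20 in 9. With library totals RPS20 had 0.05 (edgeR's quasi-likelihood test, adjusted p = 0.595). DESeq2 called 3 higher and 0 lower, with 15.7% of all genes called. The median over the members was 0.05, beside -0.02 over all genes. With library totals the direction turned, with a median of -0.09, 0 members higher (0 also at an unadjusted p under 0.05 in edgeR) and 6 lower, among them RPL13A, RPL3, RPL13 and RPLP0, while 26.9% of all genes were called. The count of members called higher was 17 without the 4 smallest samples, which are HTO4+HTO9 and the pairs of HTO3 with HTO5, HTO7 and HTO9, beside 9.68% of all genes called higher in that fit. Left out singly, HTO4+HTO6 or HTO4+HTO8 gave 0 members, HTO2+HTO7, HTO3+HTO6 or HTO2+HTO10 gave 1, and HTO4+HTO9 or HTO3+HTO5 gave 4.

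Both-like samples differed most from unstimulated-like samples, by small amounts and in a direction that depended on the scaling. With TMM, 16 of 82 members were called higher and 1 lower, or 20.7% of them, while 36.1% of all genes tested were called, 19.1% higher and 17% lower. DESeq2 called 17 higher and 1 lower, with 31.7% of all genes called. The median log2 fold change was 0.12 with TMM, 80 of 82 members lay above 0, and the largest, RPL39L, reached 0.39 ± 0.17 (SE) without passing the threshold (adjusted p = 0.0784). With library totals and no TMM factor, 0 members were called higher (1 at an unadjusted p under 0.05 in edgeR) and 13 lower, the median was -0.09, and 77 of 82 lay below 0. That scaling moved the median of all genes from -0.01 to -0.24, and 48.4% of all genes were called, with 36.4% called lower. With totals that leave out mitochondrial and response genes, 3 members were called higher and 1 lower, at medians of 0.00 for members and -0.14 for all genes, of which 40.6% were called. Under each of these scalings the members' median lay 0.14 or 0.15 above that of all genes. A change of scaling moves all genes of a sample alike, so this gap stays nearly the same by construction.

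**Figure D2:**
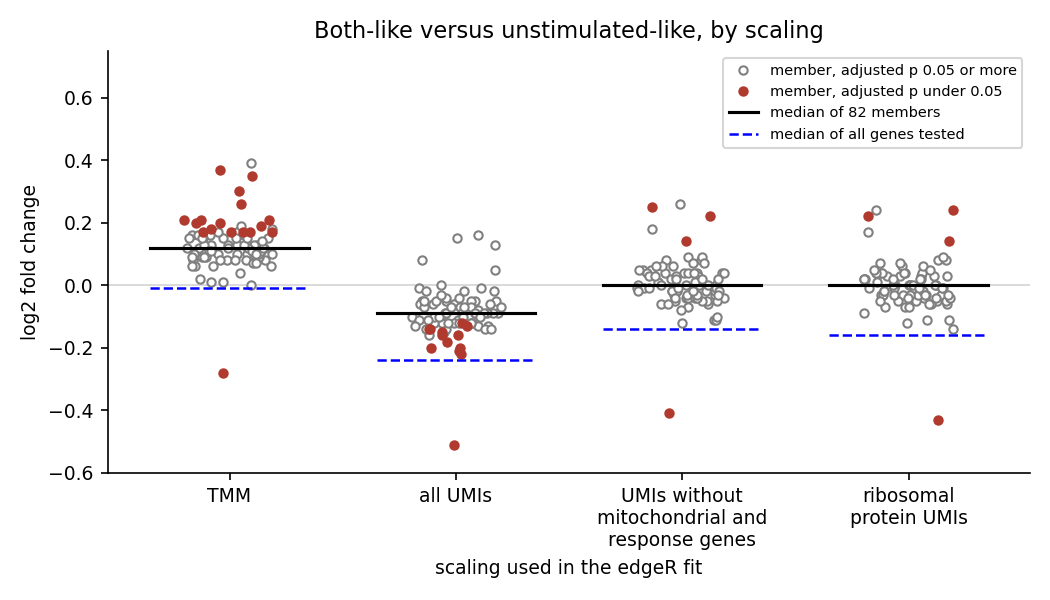
Log2 fold change of the 82 tested ribosomal protein genes between both-like and unstimulated-like samples (points; filled red at an adjusted p under 0.05 in edgeR's quasi-likelihood test) under 4 scalings, with the median of the members (solid line) and of all genes tested (dashed line). The cloud lies above 0 with TMM and below 0 with all UMIs as the total. Its distance from the dashed line is nearly the same by construction, since a scaling moves all genes of a sample alike.

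Several hashed samples set the count. With TMM, 71 members were called higher without the 4 smallest samples, beside 18.1% of all genes called higher in that fit, and 50 without HTO3+HTO5 and HTO4+HTO9, an alternative added after seeing the data, beside 18.8%. Left out singly, HTO4+HTO9 gave 34, HTO4+HTO7 gave 4, HTO2+HTO7 gave 6, HTO4+HTO6 gave 7, HTO3+HTO6 gave 8, and HTO3+HTO9 or HTO4+HTO10 gave 9. The share of all genes called is not given for the fits that left samples out singly. Their counts thus cannot be read as particular to the members. The median fold change of the members was 0.20 without the 4 smallest samples and 0.15 without the 2 samples.

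**Figure D3:**
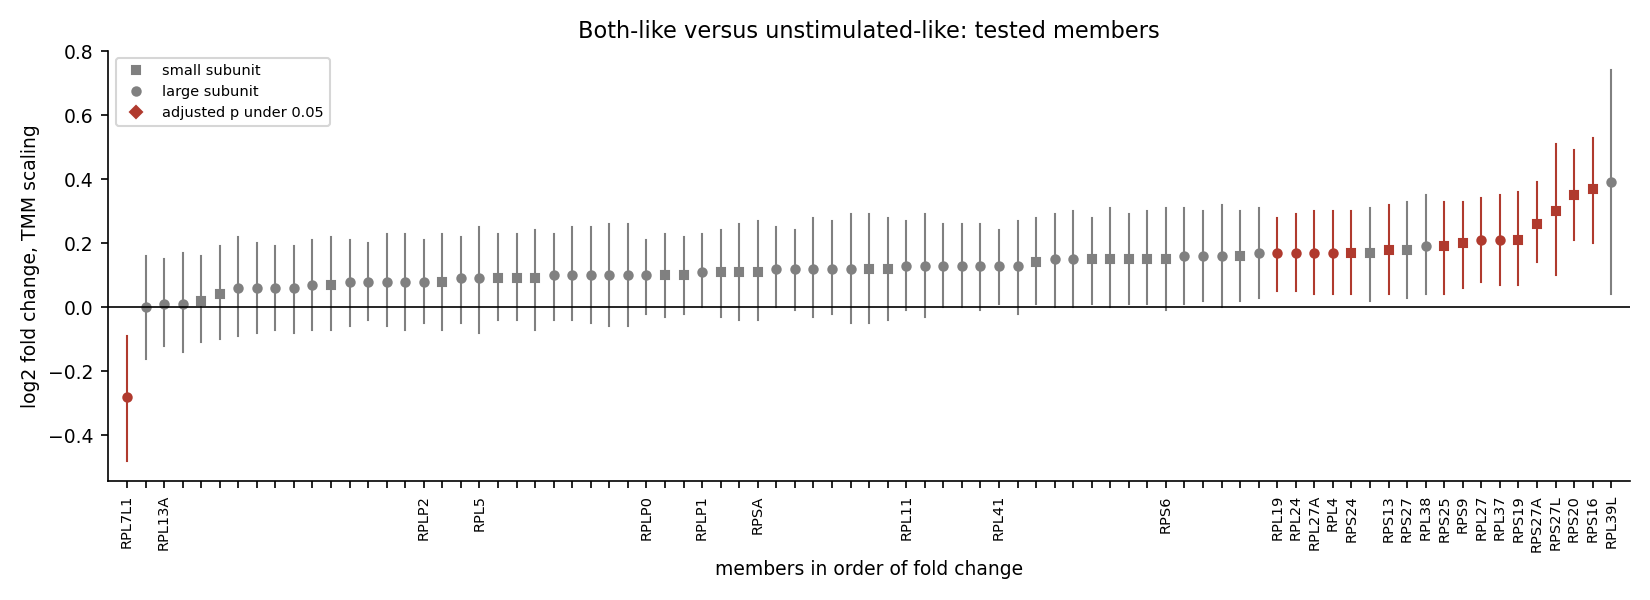
Log2 fold change with 95% interval of the tested members, all but 1, between both-like and unstimulated-like samples in the TMM-scaled fit, in order of size; squares are small-subunit and circles large-subunit genes, red at an adjusted p under 0.05, and names are given for the members described. With TMM 16 members are called higher, 1 of them not drawn, and RPL7L1 lower; with library totals 0 are called higher and 13 lower.

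Small-subunit genes made up 9 of the 16 members called higher with TMM, of 32 tested, and large-subunit genes 7 of 50. The median log2 fold change was 0.15 for the small and 0.12 for the large subunit, and 0.02 and -0.01 when the total of the members' own UMIs was the library size. That last scale asks which members moved against the members as a whole, and it was added after seeing the data. On it RPS16, RPS20 and RPS27A were called higher and RPL7L1 lower, while 40.1% of all genes were called. The same 4 genes were called with the totals that leave out mitochondrial and response genes, as the plot of folds by scaling shows.

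RPS16 encodes a protein of the small-subunit head whose tail reaches the tRNA (chromosome 19, 39433207 to 39435948, minus strand, GRCh38, GENCODE 29). Its TMM-scaled level per 10000 UMIs was 8.46, 8.55, 9.05, 7.47 and 8.81 in the unstimulated-like samples HTO2+HTO5, HTO2+HTO8, HTO3+HTO7, HTO4+HTO7 and HTO4+HTO10. It was 9.06, 9.07, 10.7, 9.16 and 7.9 in the TNF-like samples HTO2+HTO6, HTO2+HTO10, HTO3+HTO5, HTO3+HTO8 and HTO4+HTO8. In the both-like samples HTO2+HTO7, HTO3+HTO6, HTO3+HTO9, HTO4+HTO6 and HTO4+HTO9 it was 11.3, 11.1, 9.68, 12.2 and 10.3. All both-like samples lay above all unstimulated-like samples and overlapped with TNF-like ones through HTO3+HTO5. The log2 fold change from unstimulated-like was 0.37 ± 0.08 (SE; edgeR's quasi-likelihood test, adjusted p = 0.000852). As a share of member UMIs, RPS16 made up 0.611% to 0.687% in unstimulated-like and 0.668% to 0.843% in both-like samples, where only HTO3+HTO9 fell inside the unstimulated-like range. On that scale the log2 fold change was 0.24 ± 0.06 (SE; adjusted p = 0.00446).

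RPS20 also encodes a head protein (chromosome 8, 56067295 to 56074581, minus strand). Its TMM-scaled level, in the same sample order, was 13.7, 12.7, 12.9, 11.7 and 12.3 in unstimulated-like, 14.7, 13.6, 15.3, 13.6 and 12.8 in TNF-like and 18, 16.1, 15.2, 16.1 and 14.8 in both-like samples. The both-like and unstimulated-like samples did not overlap, and HTO3+HTO5 of the TNF-like samples lay inside the both-like range. The log2 fold change from unstimulated-like was 0.35 ± 0.07 (SE; edgeR's quasi-likelihood test, adjusted p = 0.000346). Against the members' own total it was 0.22 ± 0.06 (SE; adjusted p = 0.00401).

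RPS27A encodes ubiquitin fused to a ribosomal protein, which is cut apart after translation, and so feeds both the ribosome and the ubiquitin pool (chromosome 2, 55231903 to 55235853, plus strand). As a share of member UMIs it made up 1.73%, 1.86%, 1.84%, 1.8% and 1.77% in unstimulated-like, 1.88%, 1.89%, 1.75%, 1.89% and 1.83% in TNF-like and 1.93%, 1.93%, 1.98%, 1.99% and 2.06% in both-like samples. Every both-like sample lay above all 10 others. The log2 fold change from unstimulated-like was 0.26 ± 0.06 (SE; edgeR's quasi-likelihood test, adjusted p = 0.00132) with TMM and 0.14 ± 0.04 (SE; adjusted p = 0.0176) against the members' total.

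RPS16, RPS20 and RPS27A were called higher in 26 of 28 fits of this comparison, including all 15 that left out a hashed sample. The exceptions were library totals, where their log2 fold changes were 0.15, 0.13 and 0.05, and the limit of 10% mitochondrial UMIs, where they were 0.33, 0.27 and 0.15. The median kept cell with a pair had 13.1% mitochondrial UMIs, so that limit left out most cells. With all kept cells and TMM the log2 fold changes were 0.37, 0.35 and 0.26. Why the calls were lost at that limit was not tested.

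RPL7L1, a less abundant relative of RPL7, was the member called lower (chromosome 6, 42879618 to 42889925, plus strand). It is a member by its symbol, and whether its protein is part of the ribosome was not examined. Its share of member UMIs was 0.0916%, 0.0916%, 0.0656%, 0.103% and 0.0784% in unstimulated-like, 0.0851%, 0.0829%, 0.0654%, 0.0712% and 0.0902% in TNF-like and 0.0686%, 0.0616%, 0.065%, 0.0619% and 0.0653% in both-like samples. Both-like values were the tightest and lay low, and HTO3+HTO7 and HTO3+HTO5 of the other groups fell inside their range. The log2 fold change from unstimulated-like was -0.28 ± 0.09 (SE; edgeR's quasi-likelihood test, adjusted p = 0.022) with TMM. With library totals it was -0.51 (adjusted p = 0.000392). The TMM call was lost without HTO3+HTO6 (adjusted p = 0.056), HTO2+HTO5 (0.0642) or HTO4+HTO7 (0.0603), and at a limit of 10% mitochondrial UMIs (0.706) or with samples thinned to the smallest total (0.241).

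**Figure D4:**
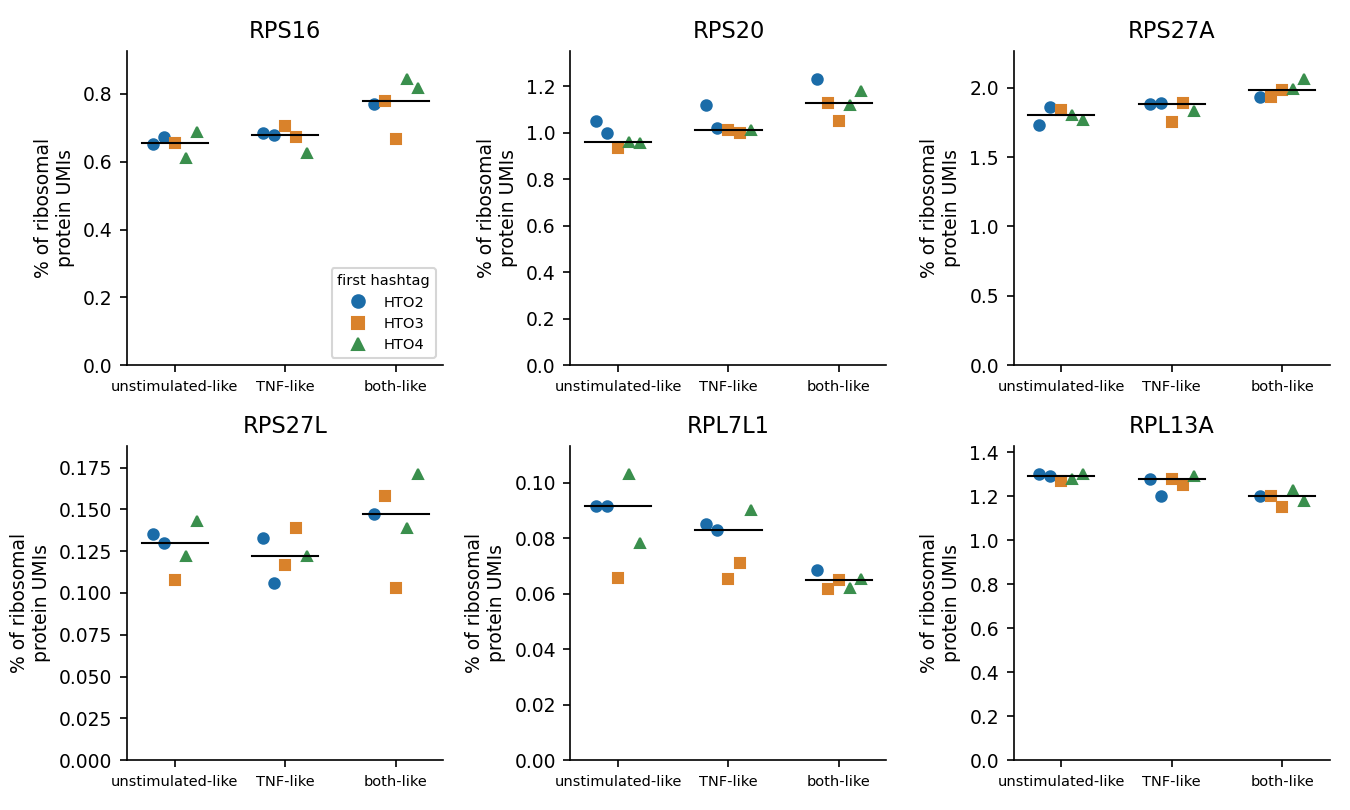
Share of ribosomal protein UMIs held by 6 members in each hashed sample (points, shaped and coloured by the first hashtag) with group medians (lines); each axis starts at 0. Every both-like sample is above all others for RPS27A, and both-like samples are below all unstimulated-like samples for RPL13A.

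RPL13A, known for its part in silencing inflammatory mRNAs after IFN-gamma, did not pass the threshold with TMM, at 0.01 ± 0.07 (SE). As a share of member UMIs it made up 1.3%, 1.29%, 1.27%, 1.28% and 1.3% in unstimulated-like, 1.28%, 1.2%, 1.28%, 1.25% and 1.29% in TNF-like and 1.2%, 1.2%, 1.15%, 1.23% and 1.18% in both-like samples. Both-like samples lay below all unstimulated-like samples, at a log2 fold change of -0.11 ± 0.05 (SE; edgeR's quasi-likelihood test, adjusted p = 0.0513) that missed the threshold. With library totals RPL13A was called lower, at -0.20 (adjusted p = 0.00684).

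Other members called higher with TMM lay between 0.17 and 0.30. RPS27L, a copy of RPS27 and a known p53 target, had 0.30 ± 0.10 (SE; edgeR's quasi-likelihood test, adjusted p = 0.0216). RPS27L was called in 20 of 28 fits. Its call was lost without HTO2+HTO7 (adjusted p = 0.0631), HTO3+HTO6 (0.0731), HTO3+HTO7 (0.0546) or HTO4+HTO7 (0.0645), with library totals (0.08, adjusted p = 0.528) and against the members' total (0.17, adjusted p = 0.229). RPL27 and RPL37 had 0.21, and the RPL37 call was lost without HTO2+HTO7 (0.0541) or HTO4+HTO7 (0.0587). RPS19, the gene most often mutated in Diamond-Blackfan anaemia, had 0.21 ± 0.07 (SE; adjusted p = 0.0212), and with library totals it had 0.00, RPL27 -0.01 and RPL37 -0.01. The RPS19 call was lost without HTO3+HTO9, HTO4+HTO6, HTO2+HTO5, HTO4+HTO7 or HTO4+HTO10, at adjusted p-values of 0.0509 to 0.063. Also called higher were RPS9, RPS25, RPS13, RPL24, RPL4, RPS24, RPL19 and RPL27A, the last at 0.17 ± 0.06 (SE; adjusted p = 0.0417). With library totals these 8 lay below 0, from -0.02 in RPS9 to -0.05 in RPL27A. Calls just inside the threshold were RPS13 (adjusted p = 0.0472) and RPL27A, and just outside it lay RPL38 (0.051) and RPS27 (0.0569). RPL38 and the members named last were chosen after their values were seen.

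The following members, named for their known roles, did not pass the threshold in this comparison with TMM. RPL5 and RPL11, the partners of MDM2, had 0.09 ± 0.08 (SE) and 0.13 ± 0.07 (SE). RPS6, whose protein is the substrate of the S6 kinases below mTOR, had 0.15 ± 0.08 (SE). RPSA, the laminin receptor precursor, had 0.11 ± 0.07 (SE), and RPL41, the shortest ribosomal protein, 0.13 ± 0.06 (SE). The stalk genes RPLP0, RPLP1 and RPLP2 had 0.10, 0.11 and 0.08.

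Paralog pairs were described by the share of the pair's UMIs that the second copy supplied. RPL22L1 supplied 28.8% of the UMIs of RPL22 and RPL22L1 together, with 28% to 31.6% in unstimulated-like, 28.5% to 32% in TNF-like and 26.3% to 30.8% in both-like samples. RPS27L supplied 14.5% of its pair with RPS27, and HTO4+HTO9 was highest at 18% and HTO3+HTO9 lowest at 11.4%, both of them both-like. RPL26L1 supplied 7.11% of its pair, from 6.01% to 8.61% over the samples. RPL39L supplied 2.6% of its pair, from 1.36% in HTO3+HTO7 to 4.38% in HTO4+HTO9. RPL7L1 supplied 5.41% to 8% in unstimulated-like, 4.85% to 7.06% in TNF-like and 4.92% to 5.63% in both-like samples. Of the unstimulated-like samples only HTO3+HTO7, at 5.41%, fell inside the both-like range of RPL7L1. The ranges of these 5 pairs overlapped between the groups, and the ratios were not tested.

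Members were also described by the pyrimidine run at their start. From unstimulated-like to both-like with TMM, the median log2 fold change was 0.13 in the 47 tested members with the run, 9 called higher and 0 lower, beside 19.1% of all genes called higher. RPL7L1, which lacks the run, was the 1 member lower at an unadjusted p under 0.05 in edgeR and in DESeq2. In the 19 without it the median was 0.11, with 4 called higher and 1 lower. In the 563 other tested genes with the run the median was -0.03, with 101 called higher and 82 lower. The difference between these sets was not tested. RPL27, without the run in the window printed above, and RPS19, with it, both stood at 0.21. Among translation factors and other TOP genes 14 of 16 with an entry had the run, and among mitochondrial ribosomal proteins 6 of 69.

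Genes named otherwise that belong to the ribosome or to translation had medians near the members' median of 0.12. FAU and RPL36AL, which encode ribosomal proteins under other names, and RACK1, a scaffold on the small subunit, had 0.13, 0.13 and 0.09 from unstimulated-like to both-like with TMM, and 0 of these 3 passed edgeR's quasi-likelihood test. At an unadjusted p under 0.05 there were 2, and DESeq2 called 1 higher. With library totals they had -0.08, -0.09 and -0.13. Of 24 translation factors and other TOP genes, 8 were called higher and 1 lower with TMM at a median of 0.13, beside 19.1% and 17% of all genes. With library totals 0 were higher (0 also at an unadjusted p under 0.05 in edgeR) and 7 lower, beside 36.4% of all genes called lower. With TMM, PABPC1, the poly(A)-binding protein, had 0.32 ± 0.07 (SE; adjusted p = 0.00107), and EIF3M, a subunit of initiation factor eIF3, 0.29 ± 0.06 (SE; adjusted p = 0.000724). PABPC4, a relative of PABPC1, had -0.29 ± 0.11 (SE; adjusted p = 0.0399). DESeq2 did not call PABPC4 (adjusted p = 0.0668), and edgeR's call was lost without HTO3+HTO6, HTO3+HTO9, HTO4+HTO6, HTO4+HTO9, HTO2+HTO5, HTO2+HTO8 or HTO4+HTO7, at adjusted p-values of 0.0534 to 0.105.

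**Figure D5:**
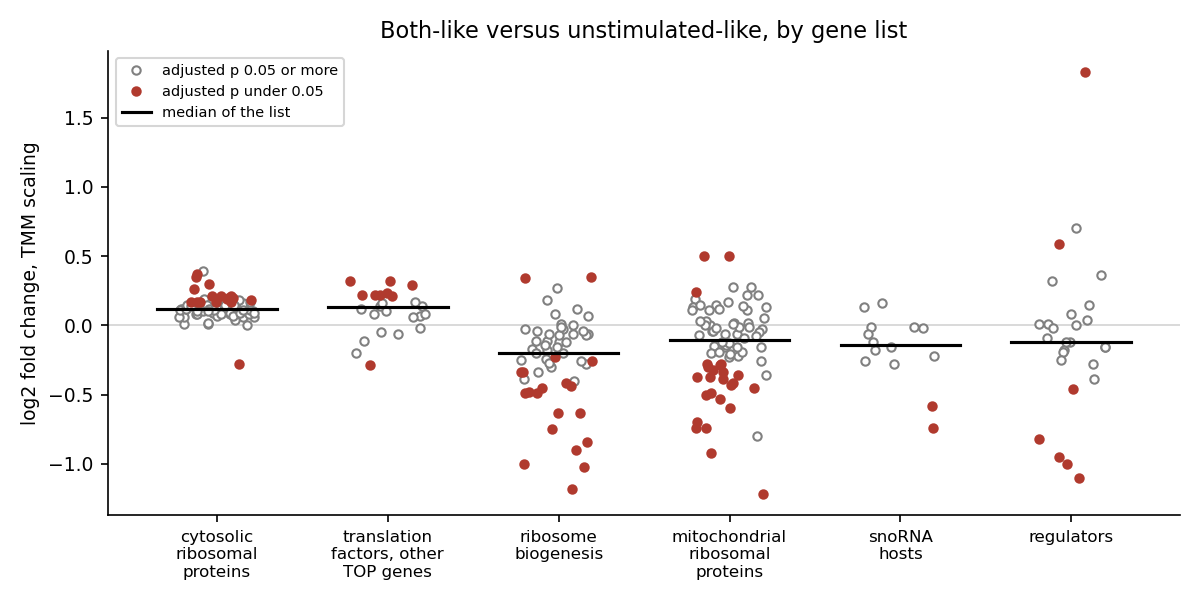
Log2 fold change between both-like and unstimulated-like samples with TMM for the 82 tested ribosomal protein genes and 5 related gene lists (points; red at an adjusted p under 0.05 in edgeR's quasi-likelihood test), with the median of each list (line). Ribosomal protein genes lie within -0.28 and 0.39, and ribosome biogenesis genes reach -1.18; with library totals the median of the ribosomal protein genes is -0.09 and that of the biogenesis genes -0.42.

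Genes for making ribosomes were lower more often than higher. Of 56 ribosome biogenesis genes, 2 were called higher and 18 lower from unstimulated-like to both-like with TMM, at a median of -0.20, beside 17% of all genes called lower, and 0 higher and 39 lower with library totals, beside 36.4%. With those totals 0 were higher and 45 lower at an unadjusted p under 0.05 in edgeR. POLR1B, a core subunit of RNA polymerase I, fell from 0.296 ± 0.0466 (SD, n = 5) to 0.119 ± 0.0365 (SD, n = 5) UMIs per 10000, a log2 fold change of -1.18 (edgeR's quasi-likelihood test, adjusted p = 0.000125). UBTF, the factor that opens ribosomal DNA for that polymerase, fell from 0.742 ± 0.0722 (SD, n = 5) to 0.392 ± 0.0793 (SD, n = 5; edgeR's quasi-likelihood test, adjusted p = 1.61e-06). WDR12, a large-subunit assembly factor, had a log2 fold change of -1.02 (adjusted p = 5.3e-06). FBL, the methyltransferase that modifies ribosomal RNA, had 0.35 (adjusted p = 0.00411) and DDX21, a nucleolar helicase, 0.34 (adjusted p = 0.00489), and with library totals both had 0.12 and were not called.

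TNF-like samples already had lower UBTF than unstimulated-like samples, at -0.49 (edgeR's quasi-likelihood test, adjusted p = 0.00594), and lower WDR12, at -0.40 (adjusted p = 0.0462). DESeq2 did not call WDR12 in that comparison (adjusted p = 0.0636), and edgeR's call was lost without HTO3+HTO5, HTO3+HTO8, HTO4+HTO8, HTO2+HTO5, HTO2+HTO8 or HTO4+HTO7, at adjusted p-values of 0.0611 to 0.152. In that comparison 0 of 56 biogenesis genes were called higher and 3 lower, beside 727 higher and 353 lower of all 9636 genes tested. From TNF-like to both-like 0 of 56 were called higher and 9 lower, beside 1071 higher and 718 lower of all 9636. At an unadjusted p under 0.05 edgeR had 0 higher and 6 lower in the first and 1 higher and 19 lower in the second, and DESeq2 called 0 higher in both, with 2 and 8 lower. The comparisons share samples, so their values are only set side by side.

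Mitochondrial ribosomal proteins, which build the separate ribosome of mitochondria, served as a like family. Of 76 tested, 3 were called higher and 22 lower from unstimulated-like to both-like with TMM, at a median of -0.10, and 2 higher and 47 lower with library totals, beside 17% and 36.4% of all genes called lower. MRPS26 fell from 1.35 ± 0.165 (SD, n = 5) to 0.605 ± 0.145 (SD, n = 5) UMIs per 10000, a log2 fold change of -1.22 (edgeR's quasi-likelihood test, adjusted p = 4.46e-08), and MRPL34 and MRPS34 had -0.92 and -0.74. MRPL14 rose from 1.68 ± 0.112 (SD, n = 5) to 2.38 ± 0.0453 (SD, n = 5), at 0.50 (adjusted p = 2.06e-06), and it was also called higher with library totals, at 0.28 (adjusted p = 0.00236). The difference between the 2 ribosome families was not tested.

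Host genes of small nucleolar RNAs, which guide ribosomal RNA modification and several of which are TOP genes, had 0 called higher and 2 lower of 14 with edgeR and with DESeq2, and 0 higher and 4 lower at an unadjusted p under 0.05 in edgeR, beside 17% of all genes called lower. Called lower by edgeR were SNHG7 at -0.74 (edgeR's quasi-likelihood test, adjusted p = 9.37e-06) and SNHG1 at -0.58 (adjusted p = 0.000654). Of 27 tested regulators of ribosome production, 2 were called higher and 5 lower with TMM, beside 36.1% of all genes called, and 1 higher and 11 lower with library totals, beside 48.4%. MXD1, a repressor that competes with MYC for its partner MAX, had 1.83 ± 0.24 (SE; adjusted p = 3.12e-06), and MYC, an activator of ribosome biogenesis, had -0.95 ± 0.27 (SE; adjusted p = 0.00942). MDM2 had 0.59 (adjusted p = 0.00815) with TMM and 0.36 (adjusted p = 0.0805) with library totals.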

How the data were processed

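The deposited values were unnormalized UMI counts for each gene and each hashtag in each barcode, made by the authors with Cell Ranger, version 5.0.1 per the file headers and 2.1.1 with GRCh38 per the submitters' processing notes; this difference was not resolved. UMIs collapse PCR copies, and intervals cover counting error only. Cells with at least 1000 genes and at most 20% mitochondrial UMIs were kept, and a cell went to its top 2 hashtags when the second reached 10 counts and 3 times the third. No doublet caller was run; cells without a clear pair were left out. Counts were summed per hashed sample and tested with edgeR 4.0.16 (glmQLFit, glmQLFTest, TMM, filterByExpr) in R 4.3.3, with all 15 hashed samples in 1 fit, group as the only term and Benjamini-Hochberg adjustment over all genes tested, at a threshold of 0.05. The fit was also run on simulated data with changes larger than those of the members, which cannot show how it does with changes of their size.

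Scaled levels are TMM-scaled counts per 10000 UMIs. Alternatives were DESeq2 1.42.0, other scalings, filters, sample sets, a first-hashtag term, thinning and leaving out each hashed sample. Named were up to 8 members called in each direction per comparison, the 5 most abundant, the paralog pairs, the stalk genes, a few members with known roles, and up to 3 genes called each way per related list; other members called are named as the remainder of a count. One member that was called and a related gene are not reported here. Members, groups, gene lists and tests were chosen with earlier results of these data known. The response genes that told the groups apart are not members.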

Additional observations from a re-analysis of the deposited data

Results flagged for a closer look

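In 16 of 96 sets of 5 hashed samples, the highest or lowest sample stood apart from the rest of its group. The sets were the scaled levels of the named members, and the members' share of UMIs, in each group. The gap, divided by the group's range, exceeded Dixon's 95% critical value. Chance does this in about 1 of 20 sets, and the sets share samples. All flagged sets were scaled levels of members, and the share was not flagged. In HTO3+HTO5, the TNF-like sample with 49 cells, 9 members stood high: RPL13 at 61.3, RPL8 at 53.8, RPL11 at 26.7, RPL26 at 25.1, RPL13A at 19.5, RPL7 at 19.5, RPL5 at 16.8, RPL37 at 11.4 and RPL27 at 10.8 UMIs per 10000. In HTO4+HTO9, the both-like sample with 64 cells, 3 members stood low: RPL13 at 46.7, RPS18 at 38.7 and RPS27 at 9.79. In HTO3+HTO7, unstimulated-like with 71 cells, RPLP2 at 17 and RPL5 at 14.6 stood high and RPL39L at 0.108 stood low. In HTO3+HTO9, both-like with 53 cells, RPL26L1 at 1.85 stood high. These 4 samples were the ones with fewest cells.

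Barcodes that no group value uses also held ribosomal protein mRNA. The members took 13.5% of UMIs in the 394 kept cells without a clear pair of hashtags, beside 13.6% in the 3144 with a pair. In the 1731 removed barcodes, whose median mitochondrial share was 29.2%, they took 10.6%.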

How the results depend on the processing

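In the settings run, 0 members were called between TNF-like and unstimulated-like samples. Members called higher between both-like and TNF-like samples (2) numbered 0 with library totals, with totals without mitochondrial and response genes, at most 10% mitochondrial UMIs or thinned counts, 1 without a low-count filter, with only 2 groups in the fit or with the members' total as library size, 17 without the 4 smallest samples, 13 without HTO3+HTO5 and HTO4+HTO9, and 0 to 4 with each sample left out; members called lower (0) numbered 6 with library totals and 1 with totals without mitochondrial and response genes. Between both-like and unstimulated-like samples, members called higher (16) numbered 0 with library totals, 3 with totals without mitochondrial and response genes, 5 without a low-count filter, 71 without the 4 smallest samples, 1 at 10% mitochondrial UMIs, 3 with thinned counts, 3 with the members' total, 50 without HTO3+HTO5 and HTO4+HTO9, and 4 to 34 with each sample left out; members called lower (1) numbered 13 with library totals, 0 at 10% mitochondrial UMIs or with thinned counts, and 0 to 1 with each sample left out. The members' total and the fit without HTO3+HTO5 and HTO4+HTO9 were chosen after seeing the data. Thinning, stricter limits on cells and fewer samples change the power for all genes. Where no share of all genes called is given for a fit, its count cannot be read as particular to the members.

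From TMM to library totals, members below 0 between both-like and unstimulated-like samples went from 2 to 77 of 82. Among members called under either scaling and named by rule, library totals reversed the log2 fold changes of RPL13 (-0.14), RPL13A (-0.20), RPL26L1 (-0.21), RPL27 (-0.01), RPL3 (-0.14), RPL37 (-0.01), RPL8 (-0.15), RPLP0 (-0.12), RPLP2 (-0.13) and RPS19 (0.00, just below 0). The limit of 10% mitochondrial UMIs reversed MRPL54, a mitochondrial ribosomal protein gene (0.00, just below 0). Library totals leave out the TMM factors, which were 0.9031 to 0.9331 in both-like and 1.023 to 1.093 in unstimulated-like samples. By construction this lowers the log2 fold changes of all genes by about the same amount. Why the factors differed was not tested, nor was the shift at the limit of 10% mitochondrial UMIs. The median share of UMIs was 14.8% in unstimulated-like and 14% in both-like samples at 10% mitochondrial UMIs. It was 15.8%, 15.8% and 15.1% in unstimulated-like, TNF-like and both-like samples without mitochondrial genes, and 16.1%, 16.3% and 16.5% also without response genes. Left out singly, samples moved it within 13.7% to 13.9%, 13.7% to 13.8% and 13% to 13.3%.

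No paired analysis was possible because the labels give hashed samples no replicate numbers. The first hashtags HTO2, HTO3 and HTO4 occur in all 3 groups; with them as a term in the fit, 17 members were called higher and 1 lower between both-like and unstimulated-like samples, and 3 higher and 0 lower between both-like and TNF-like samples. Depth limits low members such as RPL39L, RPL7L1 and RPS10, and the 4 smallest samples held 49 to 71 cells.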
